A study of Mus musculus with 6 samples.

Results

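The SLC25 genes encode the mitochondrial carriers, the largest family of solute transporters in the inner mitochondrial membrane, and their transcripts were measured here in mouse quadriceps, a fast skeletal muscle of the thigh. Members were the protein-coding genes whose mouse symbol begins with Slc25a and a number and whose expected count averaged at least 10 over the 6 libraries. Of 47 such genes in the files, 39 met this minimum and were members, out of 53947 genes measured in all. HSALR samples (n = 3) came from mice aged 12 weeks that carry a transgene of human skeletal actin with about 220 CTG repeats, and WT samples (n = 3) came from mice of the same age without it. HSALR mice model the muscle disease myotonic dystrophy type 1, in which RNA with expanded CUG repeats holds MBNL splicing factors in nuclear foci. The transgene is driven by the actin promoter in muscle fibres. The labels do not give the strain or say whether WT mice were littermates. Nor do they say that the samples are of different animals. The p-values set the difference between groups against the variation within groups, which may be technical.

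Each carrier is built from a repeated module of paired membrane helices and moves its substrate by switching between a state open to the intermembrane space and a state open to the matrix. In muscle the family is best known for the ADP/ATP carriers and the phosphate carrier, which supply ATP synthase and export its product, and for the carriers of the malate-aspartate and carnitine shuttles, which bring reducing equivalents and fatty acids to the matrix. Other members carry iron, glutathione, nucleotides and coenzymes. The carriers are made in the cytosol and imported through the TOM pore, small TIM chaperones and the TIM22 complex.

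The libraries differed in composition. HSALR libraries held 11468959 to 13220792 counts and WT libraries 14048603 to 15023710. The non-coding RNAs 7SL and 7SK took 44.0%, 18.9% and 23.98% of the counts in HSALR replicates 1, 2 and 3, against 14.2% to 15.5% in WT. HSALR replicate 1 stood apart from the others, with 51.7% of its counts on protein-coding genes against 71.7% to 81.6% elsewhere. The summed level of 10 muscle fibre markers was 69090 CPM (counts scaled to a common TMM-normalised library size) in HSALR replicate 1, 123200 and 100500 CPM in HSALR replicates 2 and 3, and 129400 to 143900 CPM in WT, so the tissue label was borne out by its markers. HSALR replicate 1 also had the highest sums of 5 macrophage markers (396 CPM, against 125 and 189 in the other HSALR libraries and 83.0 to 98.6 in WT) and of 5 fibroblast markers (4707 CPM, against 1510 and 2086 in HSALR and 1168 to 1330 in WT). The sum of 6 erythroid genes was likewise highest there (2042 CPM, against 389 and 923 in HSALR and 355 to 600.0 in WT). Of these genes, edgeR called 4 of 5 macrophage markers and 1 of 5 fibroblast markers higher in HSALR (4.28% of all genes). With limma-voom 2 macrophage markers and 0 fibroblast markers were called (10.9% of all genes in either direction). Of the 5 erythroid genes tested, 0 were called by edgeR, DESeq2 or limma-voom, and 0 had an unadjusted p below 0.05 by edgeR. Of the 10 fibre markers edgeR called 1 lower (7.48% of all genes), Atp2a1, with a log2 fold change of -1.09 ± 0.29 (adjusted p = 0.0446). Log2 fold changes (HSALR over WT) were above 0 in 0 of the 10, with a median of -0.43 against 0.04 over all genes tested. The groups did not overlap in 5 of the 10 (37.8% of all genes). In whole muscle, fewer cells of a type and less RNA per cell cannot be told apart.

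The same 4 carriers led the family in every library of both groups. On the TPM scale, which is per transcript length, Slc25a4 (ADP/ATP carrier 1, the muscle and heart isoform) held 61.9% to 64.3% of the summed family level in HSALR libraries and 61.9% to 63.0% in WT. Slc25a3, the phosphate carrier, ranked second in every library, with a mean share of 15.2% in HSALR and 15.9% in WT. Slc25a11, the oxoglutarate carrier, and Slc25a12, the aspartate/glutamate carrier aralar, followed at ranks 3 and 4 in every library. These 4 genes held 85.9% to 90.2% of the family level in HSALR and 88.9% to 89.6% in WT. Only 12 of the 39 members averaged at least 5 TPM, and Slc25a13, the liver-type aspartate/glutamate carrier citrin, was the lowest of the 39 at 0.22 TPM.

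**Figure D1:**
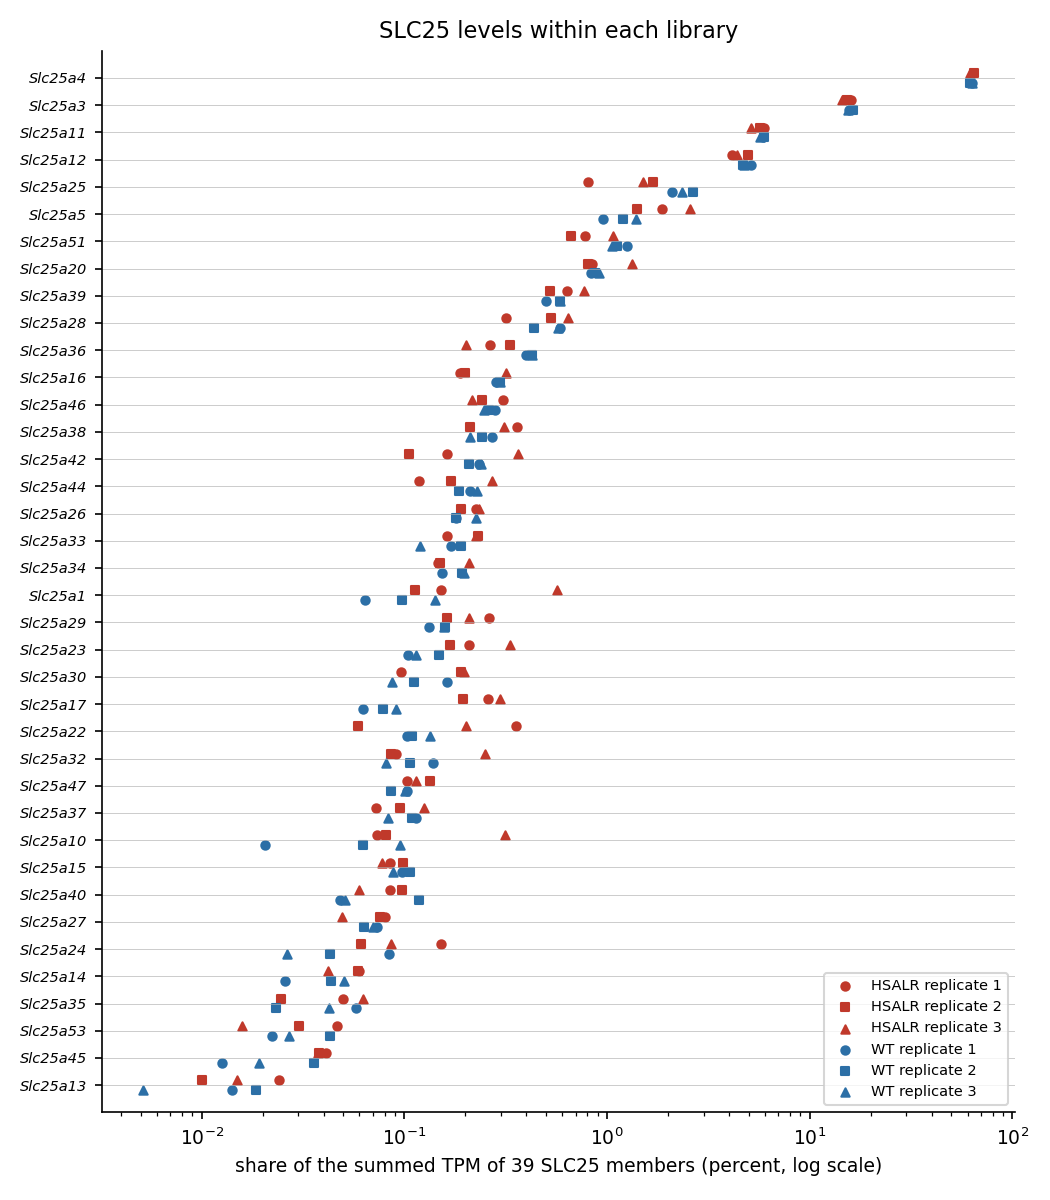
Share of the summed TPM of the 39 SLC25 members (percent, log axis) for 38 members in each library, with HSALR in red above WT in blue and the shape giving the replicate. Slc25a4, Slc25a3, Slc25a11 and Slc25a12 keep ranks 1 to 4 in all 6 libraries, whereas Slc25a17 lies to the right in the 3 HSALR libraries and Slc25a36 to the left.

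The family as a whole made up 0.649%, 0.702% and 0.607% of protein-coding TPM in the HSALR libraries and 0.688%, 0.716% and 0.708% in WT. HSALR replicate 2 lay within the WT range, so the groups overlapped. Without Slc25a4 the rest of the family made up 0.232%, 0.251% and 0.231% in HSALR and 0.255%, 0.2725% and 0.262% in WT. These values did not overlap, and no test was made of either sum. The 39 members were spread over 18 chromosomes. The closest pair was Slc25a29 and Slc25a47 on chromosome 12, which overlap by 230 bases on opposite strands, and the library kit marks strand.

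To ask which carriers differ in HSALR muscle, rounded expected counts of 13576 genes were compared with edgeR's quasi-likelihood F test, and those whose p, adjusted by Benjamini-Hochberg over all tested genes, was below 0.05 were called. All 39 members were tested, and 5 of them (12.8%) were called, against 11.8% of all genes tested. Slc25a17 and Slc25a24 rose (background for higher calls 4.28%), and Slc25a25, Slc25a36 and Slc25a51 fell (background for lower calls 7.48%). The family was thus called about as often as genes in general. The median log2 fold change (HSALR over WT) of the members was -0.08, against 0.04 for all genes tested, with 13 members above 0 and 26 below. The 2 groups of libraries did not overlap in 12 members (30.8%), against 37.8% of all genes. Of these 12, HSALR lay above WT in 5 (background 17.8%) and below it in 7 (background 20%). Among the 34 members not called, log2 fold changes ran from -0.50 to 1.35, and 28 lay within 0.5 of 0. Unadjusted p-values named below are those of edgeR.

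**Figure D2:**
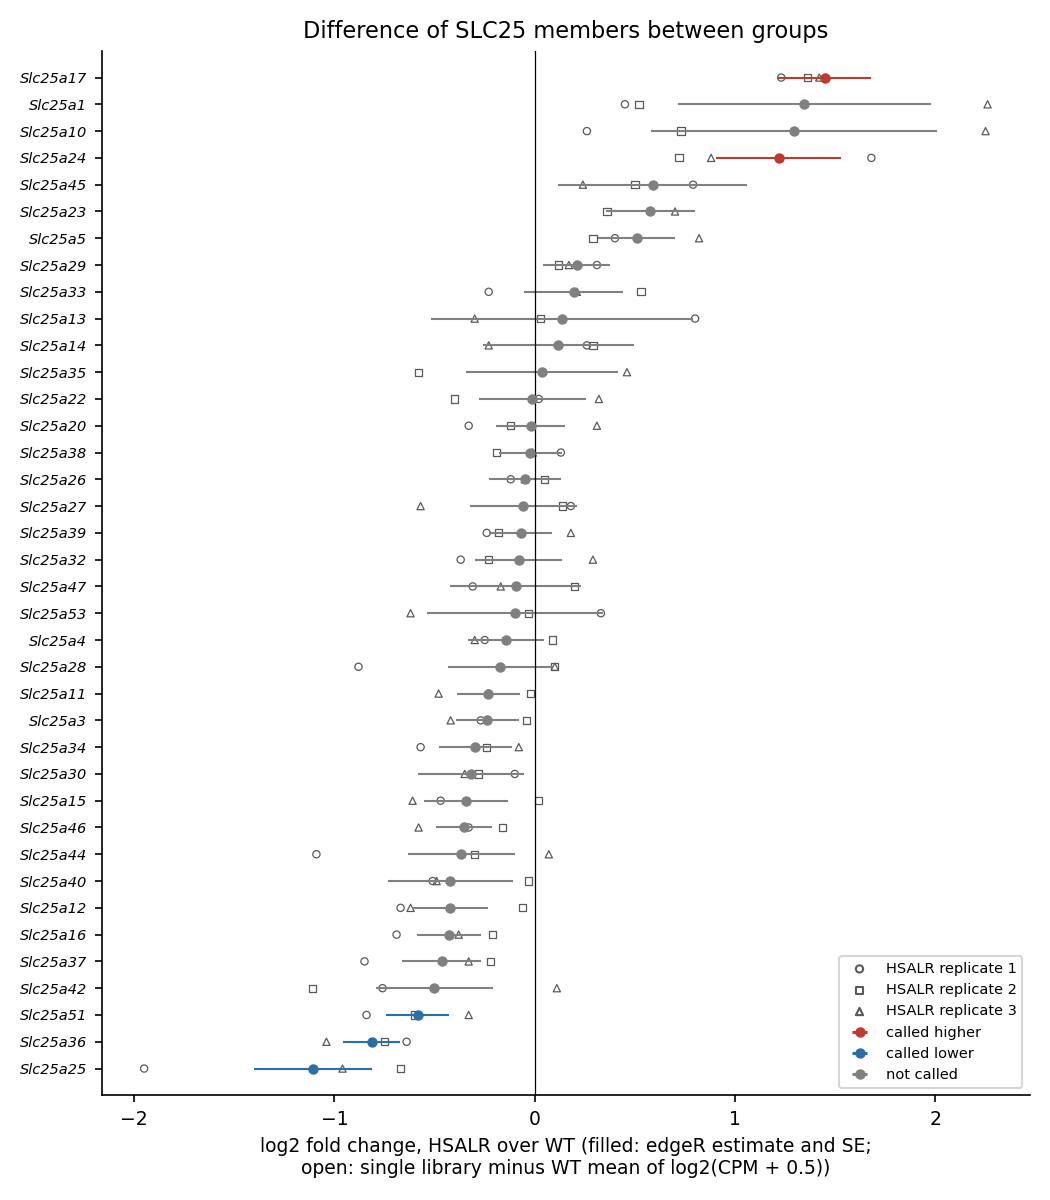
Log2 fold change of 38 members, HSALR over WT, with the edgeR estimate and SE as filled points and lines (red called higher, blue called lower, grey not called) and each HSALR library as an open symbol. The called members are the 3 lowest estimates, down to -1.11 for Slc25a25, and 2 of the 4 highest, up to 1.45 for Slc25a17, while the 3 open symbols of Slc25a1 and Slc25a10 are spread over more than 1 log2 unit.

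The calls depended on the libraries used. Without HSALR replicate 1, 4 of the 39 members and 14.4% of all genes were called (Slc25a51 was not, adjusted p = 0.051 by edgeR). Without HSALR replicate 2, 8 of the 39 members and 23.6% of all genes were called. No member was called by edgeR without HSALR replicate 3, WT replicate 1 or WT replicate 2 (7, 5 and 7 members at an unadjusted p below 0.05), and only Slc25a17 without WT replicate 3, while the share of all genes called fell to between 1.19% and 1.55% in those 4 fits.

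By role, the 5 called carriers were 3 of 9 for nucleotides and cofactors and 2 of 6 for adenine nucleotides and phosphate, against 11.8% of all genes. These lists are small and the counts were not tested, so they are not a result about the roles. Among 9 members that carry nucleotides and cofactors, 1 rose and 2 fell, and the list's median log2 fold change was -0.08. Slc25a17 (ENSMUSG00000022404; GRCm39 chromosome 15, 81203110-81245117, minus strand) encodes the carrier of coenzyme A, FAD and NAD in the peroxisomal membrane, and is the member that works outside mitochondria. Its level was 7.98, 8.78 and 9.18 CPM in HSALR replicates 1, 2 and 3, against 2.47, 3.04 and 4.01 CPM in WT. The lowest HSALR library was above the highest WT library, and the log2 fold change was 1.45 ± 0.23 (SE, n = 3 each; adjusted p = 0.00924 by edgeR), a 2.73-fold higher level. Without HSALR replicate 1, the log2 fold change was 1.51. The call was kept in 16 of 20 alternatives.

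Slc25a36 (ENSMUSG00000032449; GRCm39 chromosome 9, 96950238-96993267, minus strand), which imports and exports pyrimidine nucleotides of the matrix, was measured at 24.6, 22.7 and 18.4 CPM in HSALR and 37.0, 39.1 and 39.4 CPM in WT. All HSALR libraries lay below all WT libraries, and WT replicates differed by little. The log2 fold change was -0.81 ± 0.14 (adjusted p = 0.0117 by edgeR), and it was -0.90 without HSALR replicate 1. Its close relative Slc25a33, the other pyrimidine nucleotide carrier, had 7.60, 13.3 and 10.5 CPM in HSALR and 9.67, 10.9 and 6.98 CPM in WT, with overlapping groups (log2 fold change 0.19 ± 0.25, adjusted p = 0.616 by edgeR).

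Because the ratio of related carriers within a library does not depend on library size, 9 such shares of summed TPM were compared by exact permutation tests (two-sided, smallest p possible 0.1). Slc25a33 made up 38.0%, 40.9% and 52.6% of the summed Slc25a33 and Slc25a36 level in HSALR, against 30.0%, 30.8% and 21.9% in WT. The mean was 43.8% ± 7.75 in HSALR and 27.5% ± 4.92 in WT (SD, n = 3 each), a difference of 16.3 points (exact p = 0.1, adjusted over 9 shares 0.45). The groups did not overlap in this share and in that of Slc25a25 described below, and they overlapped in the other 7, with exact p between 0.2 and 1. Leaving out 1 library at a time, the difference of the Slc25a33 share stayed between 11.9 and 19.2 points. The transcript length behind the TPM of Slc25a36 was 3577, 2199 and 3526 bases in HSALR and 2892 to 2982 bases in WT. On counts without length correction the Slc25a33 share was 23.6%, 36.9% and 36.3% in HSALR and 20.7%, 21.7% and 15.04% in WT, again without overlap.

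**Figure D3:**
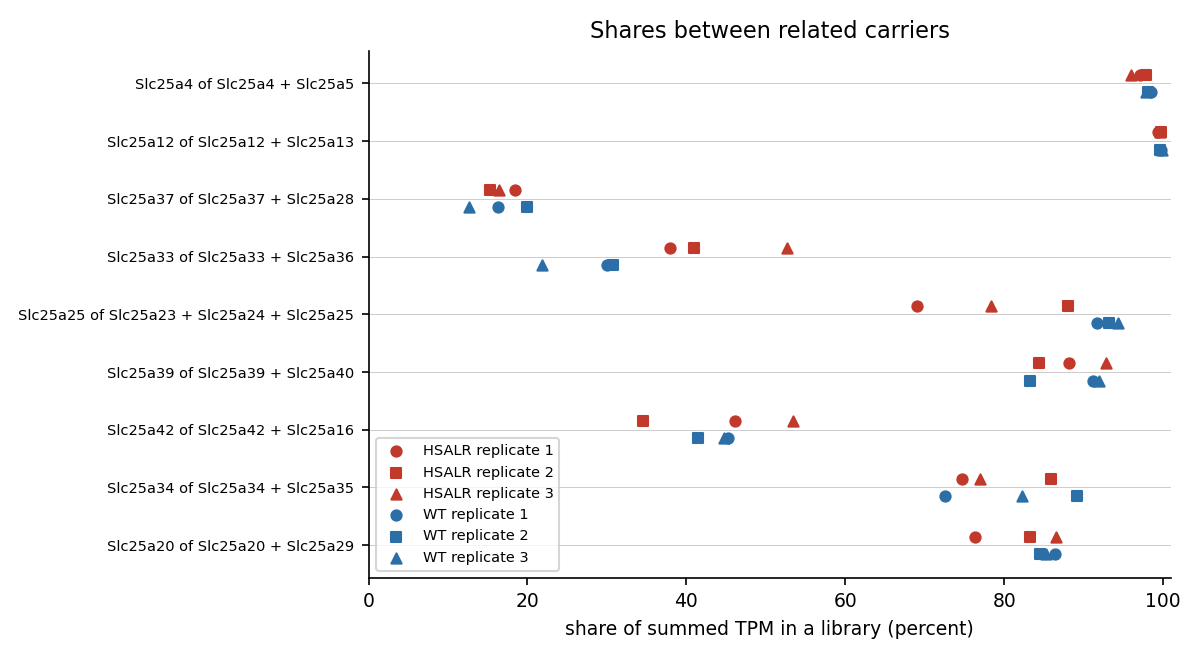
Share of the first-named carrier in the summed TPM of the related carriers named on each row (percent), with HSALR libraries in red above WT libraries in blue. The Slc25a33 share is higher in all 3 HSALR libraries (38.0% to 52.6%, against 21.9% to 30.8% in WT) and the Slc25a25 share is lower (69.1% to 88.0%, against 91.7% to 94.4% in WT).

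Slc25a51 (ENSMUSG00000045973; GRCm39 chromosome 4, 45395923-45409528, minus strand) carries NAD+ into the matrix. It had 35.6, 42.3 and 51.0 CPM in HSALR against 71.6, 61.1 and 60.8 CPM in WT, with no overlap between the groups. The log2 fold change was -0.58 ± 0.16 (adjusted p = 0.046 by edgeR), a level 33.3% lower in HSALR. This was the least stable of the 5 calls, kept in 9 of 20 alternatives (log2 fold change -0.38 and not called in a fit adjusted for the share of 7SL and 7SK), and some of its reads were divided among genes by the counting, since its expected counts were not whole in all 6 libraries.

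None of the other 6 nucleotide and cofactor carriers was called by edgeR, DESeq2 or limma-voom, and 1, Slc25a16, had an unadjusted p below 0.05 by edgeR. Slc25a16, linked to coenzyme A in the matrix, had 12.0, 16.9 and 15.02 CPM in HSALR and 19.2, 21.8 and 18.2 CPM in WT, which did not overlap (log2 fold change -0.43 ± 0.16, adjusted p = 0.106 by edgeR). Slc25a42, the coenzyme A carrier, had a log2 fold change of -0.50 ± 0.29 (adjusted p = 0.274 by edgeR) with overlapping groups. The carriers of S-adenosylmethionine (Slc25a26) and of folate or FAD (Slc25a32) had log2 fold changes of -0.05 and -0.08.

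Among the 6 members that carry adenine nucleotides and phosphate, 1 rose and 1 fell, both of them calcium-regulated ATP-Mg/phosphate carriers. These have a calmodulin-like domain with EF hands facing the intermembrane space and adjust the adenine nucleotide pool of the matrix. Slc25a25 (ENSMUSG00000026819; GRCm39 chromosome 2, 32303547-32341482, minus strand), the main one of them in muscle, was measured at 52.5, 128 and 104 CPM in HSALR and 183, 224 and 208 CPM in WT. Every HSALR library was below every WT library, and HSALR replicate 1 was the lowest of all. The log2 fold change was -1.11 ± 0.29 (adjusted p = 0.0485 by edgeR), a level 53.6% lower in HSALR. Without HSALR replicate 1 it was -0.81 and still called (adjusted p = 0.00562 by edgeR). The call was kept in 11 of 20 alternatives, and in the fit that adjusts for the 7SL and 7SK share the log2 fold change was -0.48 and not called (adjusted p = 0.0748 by edgeR).

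Slc25a24 (ENSMUSG00000040322; GRCm39 chromosome 3, 109030317-109075773, plus strand), the isoform of many proliferating cells, had 13.5, 6.69 and 7.58 CPM in HSALR and 4.31, 4.63 and 2.90 CPM in WT. Groups did not overlap, and HSALR replicate 1, which had the highest macrophage and fibroblast sums, was also the highest for this gene. The part of other cell types in the rise of Slc25a24 was not tested. Its log2 fold change was 1.22 ± 0.31 (adjusted p = 0.0393 by edgeR) with all libraries and 0.86 (adjusted p = 0.044 by edgeR) without HSALR replicate 1. The call was kept in 12 of 20 alternatives. It was lost, among others, in the fit adjusted for 7SL and 7SK (log2 fold change 0.59) and with an effective length offset (0.78). It was also lost on the TPM scale (0.23), where the median of all genes tested was -0.46. The length of Slc25a24 behind the TPM was 1715 bases in WT replicate 1 against 3431 bases in the other 5 libraries. Slc25a23, the remaining member of this branch, had 8.07, 6.85 and 8.85 CPM in HSALR and 4.24, 6.42 and 5.27 CPM in WT (log2 fold change 0.58 ± 0.22, adjusted p = 0.11 by edgeR), with HSALR above WT in all libraries but no call.

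Within this branch Slc25a25 held 69.1%, 88.0% and 78.3% of the summed TPM in HSALR, against 91.7%, 93.3% and 94.4% in WT. The mean was 78.5% ± 9.47 in HSALR and 93.1% ± 1.33 in WT (SD, n = 3 each), a difference of -14.7 points (exact p = 0.1, adjusted over 9 shares 0.45). HSALR lay below WT on counts without length correction as well, at 70.9%, 90.5% and 86.4% against 95.6%, 95.3% and 96.2%.

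**Figure D4:**
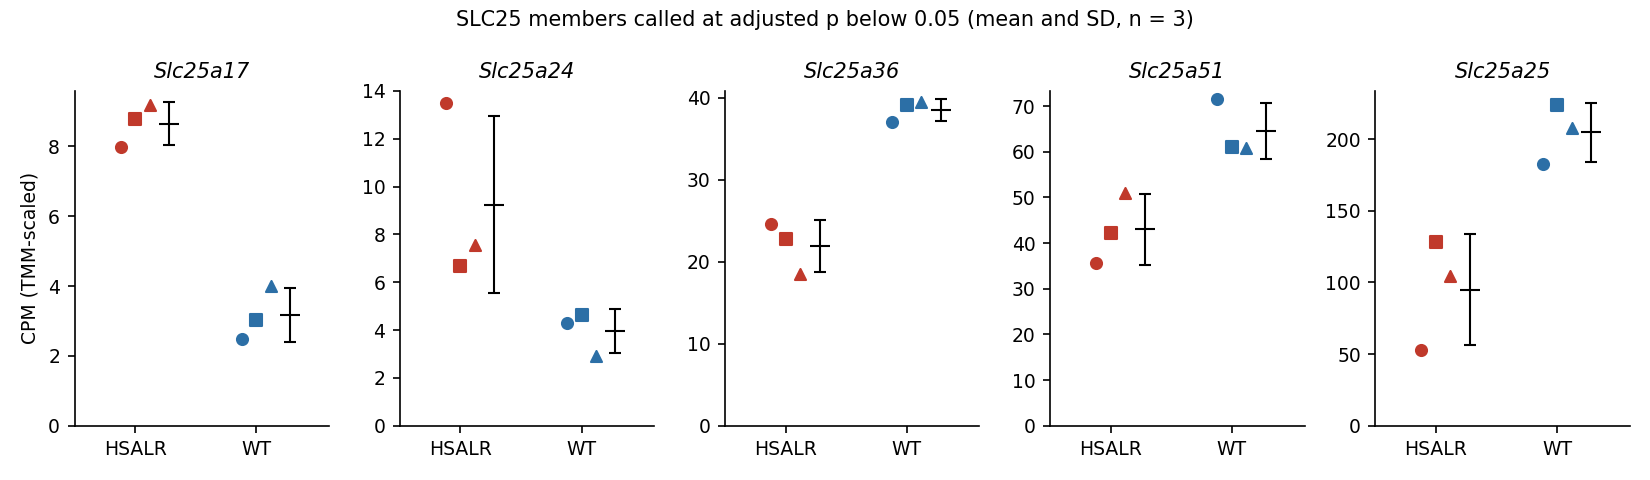
Level in CPM (TMM-scaled) of the 5 members called at an adjusted p below 0.05, with HSALR libraries in red left of WT libraries in blue, the mean and SD of 3 libraries beside them, and each axis starting at 0. HSALR and WT do not overlap in any of the 5, and HSALR replicate 1 (circle) is the extreme HSALR library for Slc25a24, Slc25a51 and Slc25a25.

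The abundant carriers of the adenine nucleotide and phosphate group were not called. Slc25a4 had 2819, 3572 and 2715 CPM in HSALR and 3327, 3306 and 3423 CPM in WT, so HSALR replicate 2 was above and the other 2 below every WT library (log2 fold change -0.14 ± 0.19, adjusted p = 0.627 by edgeR). Slc25a3 was measured at 520.8, 611 and 469 CPM in HSALR and 618, 646 and 622 CPM in WT, which did not overlap (log2 fold change -0.24 ± 0.16, adjusted p = 0.329 by edgeR). Slc25a5, ADP/ATP carrier 2, the isoform of proliferating and non-muscle cells, had 54.8, 50.8 and 73.5 CPM in HSALR and 33.8, 41.9 and 50.3 CPM in WT, again without overlap (log2 fold change 0.51 ± 0.19, adjusted p = 0.107 by edgeR). Slc25a4 made up 97.0% ± 0.92 of the summed TPM of these ADP/ATP carriers in HSALR and 98.2% ± 0.34 in WT (SD, n = 3 each; exact p = 0.2).

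None of the 5 members of the citrate, dicarboxylate and oxoglutarate list was called by edgeR, DESeq2 or limma-voom. None had an unadjusted p below 0.05 by edgeR. Slc25a11, which exchanges oxoglutarate for malate in the malate-aspartate shuttle, had 253, 292 and 213 CPM in HSALR and 296, 302 and 292 CPM in WT (log2 fold change -0.23 ± 0.16). Slc25a1 and Slc25a10 had large but uneven differences. Slc25a1, the citrate carrier that exports citrate for fatty acid synthesis, had 5.32, 5.64 and 19.9 CPM in HSALR replicates 1, 2 and 3 and 2.26, 3.51 and 6.53 CPM in WT replicates 1, 2 and 3 (log2 fold change 1.35 ± 0.63, adjusted p = 0.194 by edgeR). Slc25a10, the dicarboxylate carrier, had 3.51, 5.08 and 15.5 CPM in HSALR and 1.27, 2.84 and 5.87 CPM in WT (log2 fold change 1.29 ± 0.71, adjusted p = 0.261 by edgeR). In both genes HSALR replicate 3 was the highest library and WT replicate 3 the second highest.

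The sum of 6 adipocyte markers ran the same way, at 221, 232 and 1498 CPM in HSALR and 74.1, 210 and 475 CPM in WT. Over the 6 libraries Slc25a1 and Slc25a10 had exactly the order of that sum, and no other member did. This order was noticed after the values were seen, when the orders of all 39 members were compared with the sum of every marker list, in both directions. So wide a search can give matches by chance, and the part of fat cells in these genes was not tested. Without HSALR replicate 3 the log2 fold changes of Slc25a1 and Slc25a10 were 0.42 and 0.37. Ucp1, the uncoupling protein of brown fat and a carrier of the same family under another symbol, had 161.9 CPM in HSALR replicate 3, 0.82 CPM in WT replicate 3, and at most 3 counts in each of the other 4 libraries.

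**Figure D5:**
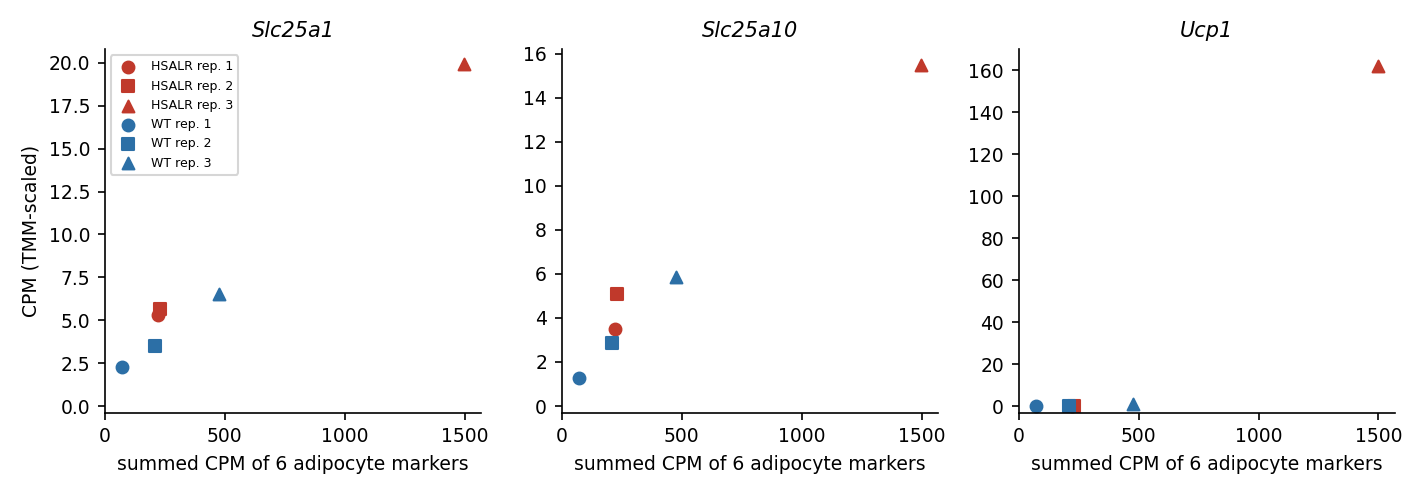
Level of Slc25a1, Slc25a10 and Ucp1 (CPM, TMM-scaled) against the summed CPM of 6 adipocyte markers, 1 point per library (HSALR red, WT blue, shape for the replicate). HSALR replicate 3 is the highest on both axes in each panel, with 1498 CPM of markers, 19.9 CPM of Slc25a1, 15.5 CPM of Slc25a10 and 161.9 CPM of Ucp1.

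The aspartate and glutamate carriers were not called by edgeR, DESeq2 or limma-voom (0 of 3, none at an unadjusted p below 0.05 by edgeR). Slc25a12, the muscle-type carrier that exports aspartate in the malate-aspartate shuttle, had 271.5, 415 and 282 CPM in HSALR and 454, 412 and 433 CPM in WT. HSALR replicate 2 lay in the WT range and the other 2 below it (log2 fold change -0.42 ± 0.19, adjusted p = 0.159 by edgeR). Without HSALR replicate 2 the log2 fold change was -0.65 and called (adjusted p = 0.00843 by edgeR). Slc25a12 held 99.4% to 99.8% of the summed Slc25a12 and Slc25a13 level in HSALR and 99.6% to 99.9% in WT. The 4 enzymes of the shuttle gave a median log2 fold change of -0.17, with 0 called by edgeR, 1 called by DESeq2 and 1 at an unadjusted p below 0.05. This was Mdh2, the mitochondrial malate dehydrogenase, at -0.34 ± 0.14.

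Of 7 carriers of carnitine, ornithine and other amino acids, none was called by any of the 3 tools or had an unadjusted p below 0.05 by edgeR. Slc25a20, the carnitine/acylcarnitine carrier of fatty acid oxidation, had 37.3, 43.3 and 58.7 CPM in HSALR and 44.8, 46.7 and 50.2 CPM in WT, so that HSALR libraries lay on both sides of WT (log2 fold change -0.02 ± 0.17, adjusted p = 0.943 by edgeR). Slc25a29, a carrier of basic amino acids, did not overlap, with 9.83 to 11.3 CPM in HSALR and 7.91 to 9.65 CPM in WT (log2 fold change 0.21 ± 0.17). The others were Slc25a15 for ornithine, Slc25a38 for glycine, Slc25a44 for branched-chain amino acids, Slc25a45 and Slc25a47, with log2 fold changes between -0.37 and 0.59. Among 4 enzymes of the carnitine shuttle edgeR called 0 and DESeq2 called 1, Crat (-0.56 ± 0.17, adjusted p = 0.0616 by edgeR), which was the enzyme with an unadjusted p below 0.05.

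The 4 carriers of iron and glutathione had a median log2 fold change of -0.30, and none was called by edgeR, DESeq2 or limma-voom. Slc25a37, mitoferrin 1, had 8.64, 13.6 and 12.6 CPM in HSALR and 18.0, 16.4 and 13.8 CPM in WT, a narrow gap without overlap (log2 fold change -0.46 ± 0.20, adjusted p = 0.143 by edgeR; the 1 member of the list at an unadjusted p below 0.05). Mitoferrin 2 (Slc25a28) and the glutathione carriers Slc25a39 and Slc25a40 had -0.17, -0.07 and -0.42 with overlapping groups. Slc25a28 turned to 0.37 when adjusted for 7SL and 7SK and to 0.10 without HSALR replicate 1, and Slc25a39 lay between 0.01 and 0.03 in those fits, with the effective length offset and without WT replicate 3. The 8 enzymes of haem synthesis, which uses the imported iron, had a median log2 fold change of -0.09, with 0 called by edgeR, 1 called by DESeq2 and 1 at an unadjusted p below 0.05. Erythroid cells express mitoferrin 1 and haem enzymes strongly, and the part of the erythroid sums given above in these values was not tested.

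The uncoupling protein branch held Slc25a14, Slc25a27 and Slc25a30, at log2 fold changes of 0.12, -0.06 and -0.32. None was called by the 3 tools or had an unadjusted p below 0.05 by edgeR. Slc25a46, an outer membrane protein that acts on mitochondrial shape, had 29.3, 32.8 and 24.5 CPM in HSALR and 38.98, 36.4 and 35.1 CPM in WT. HSALR lay below WT in all libraries (log2 fold change -0.35 ± 0.14, adjusted p = 0.124 by edgeR). Slc25a53, whose substrate is not assigned, had a log2 fold change of -0.10 ± 0.44.

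Among relatives that bear other symbols, Ucp2, an uncoupling protein of many tissues and of immune cells, rose. It had 20.4, 12.2 and 22.2 CPM in HSALR and 8.47, 11.1 and 8.69 CPM in WT (log2 fold change 0.95 ± 0.24, adjusted p = 0.0357 by edgeR), and macrophage markers were also higher in HSALR, a link that was not tested. The Ucp2 call was kept in 11 of 20 alternatives, with log2 fold changes down to 0.24 on the TPM scale (median of all genes tested -0.46). Ucp3, the skeletal muscle uncoupling protein, had 17.4, 39.6 and 37.4 CPM in HSALR and 62.4, 58.3 and 109 CPM in WT, without overlap. It missed the threshold in edgeR (log2 fold change -1.28 ± 0.36, adjusted p = 0.0628) and passed it in DESeq2. Mtch1 and Mtch2, carrier-like proteins of the outer membrane, were not called.

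Of 13 genes for the import of carriers into the inner membrane, 1 was called by edgeR (11.8% of all genes) and 4 by DESeq2 (17.9% of all genes), and 9 had an unadjusted p below 0.05. The groups did not overlap in 9 of the 13 (37.8% of all genes), and the median log2 fold change was 0.36, against 0.04 over all genes tested. Timm10, a small chaperone that escorts carriers across the intermembrane space, was the call, with 30.9, 23.4 and 31.3 CPM in HSALR and 18.1, 17.1 and 21.0 CPM in WT (log2 fold change 0.61 ± 0.16, adjusted p = 0.0406 by edgeR). The call was kept in 11 of 20 alternatives. On the TPM scale the log2 fold change of Timm10 was 0.03, where the median of all genes tested was -0.46. Log2 fold changes were above 0 in 10 of the 13. Tomm70a, the outer membrane receptor for carriers, lay the other way, with 53.6, 69.0 and 45.6 CPM in HSALR and 81.1, 77.7 and 85.1 CPM in WT (log2 fold change -0.54 ± 0.16, adjusted p = 0.0636 by edgeR). Timm29 and Timm22 were also lower in HSALR without overlap (log2 fold changes -0.57 ± 0.20 and -0.33 ± 0.13, adjusted p = 0.0917 and 0.128 by edgeR). Mean transcript length ran from 518 (Timm8b) to 2160 bases (Agk) among the 10 above 0. It was 5934, 3170 and 1454 bases for Tomm70a, Timm29 and Timm22. Over all protein-coding genes tested, longer transcripts tended to have lower log2 fold changes (Spearman's rho -0.247). The part of length in the values of this list was not tested. Of 5 nuclear regulators of mitochondrial genes, edgeR called 1 lower (7.48% of all genes). This was Ppargc1a, the coactivator PGC-1alpha, with 24.5, 25.4 and 18.2 CPM in HSALR and 44.0, 66.5 and 71.1 CPM in WT (log2 fold change -1.42 ± 0.21, adjusted p = 0.00711 by edgeR). Ppargc1b, Esrra, Nrf1 and Gabpa had log2 fold changes of -0.22, -0.12, -0.05 and -0.26, without a call or an unadjusted p below 0.05. The citrate synthase gene Cs and the other 5 genes of outer membrane channels and matrix markers had a median log2 fold change of -0.22, with 0 called by edgeR or DESeq2 and 1 at an unadjusted p below 0.05. Both subunits of the pyruvate carrier, which is not an SLC25 protein, were higher in every HSALR library than in any WT library, at log2 fold changes of 0.21 for Mpc1 and 0.28 for Mpc2, without a call or an unadjusted p below 0.05.

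The promoters of the called carriers are shown so that the sequences at the starts of the genes that rose and of those that fell can be compared. RefSeq windows of 300 bases on GRCm38.p6, most of each window lying before the gene's start, matched 30 of the 39 members (39 windows, as some genes have several starts), and among the called members they matched Slc25a17, Slc25a24, Slc25a36 and Slc25a25. Capitals mark matches to 14 motifs searched on both strands. Slc25a25 has 3 windows, of which 2 are printed. The last 30 bases of the first were found in 5 of its 18 GENCODE transcripts and those of the second, shown because it holds a match to the CRE palindrome, in 0. Those of the window not printed, which holds no match, were found in 1, and gene-level counts do not say which start is used in muscle.
Slc25a17, chr15:81360716-81361015, minus strand: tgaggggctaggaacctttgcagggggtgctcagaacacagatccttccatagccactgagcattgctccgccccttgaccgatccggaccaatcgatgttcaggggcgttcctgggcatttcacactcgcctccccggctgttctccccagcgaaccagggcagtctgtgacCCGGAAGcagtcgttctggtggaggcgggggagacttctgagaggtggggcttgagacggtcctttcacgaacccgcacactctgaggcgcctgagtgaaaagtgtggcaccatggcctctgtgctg
Slc25a24, chr3:109122899-109123198, plus strand: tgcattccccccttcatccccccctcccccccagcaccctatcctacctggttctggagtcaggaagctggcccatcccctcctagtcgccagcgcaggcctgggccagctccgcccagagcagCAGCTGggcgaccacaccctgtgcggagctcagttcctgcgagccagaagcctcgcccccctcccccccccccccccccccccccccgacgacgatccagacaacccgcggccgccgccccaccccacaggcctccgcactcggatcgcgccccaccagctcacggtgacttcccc
Slc25a36, chr9:97110992-97111291, minus strand: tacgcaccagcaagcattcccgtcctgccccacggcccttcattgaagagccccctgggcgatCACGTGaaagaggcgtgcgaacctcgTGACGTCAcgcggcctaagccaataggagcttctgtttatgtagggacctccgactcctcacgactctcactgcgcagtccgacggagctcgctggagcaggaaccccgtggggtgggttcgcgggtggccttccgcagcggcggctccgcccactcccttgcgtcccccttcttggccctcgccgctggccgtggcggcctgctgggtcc
Slc25a25 (first window), chr2:32451421-32451720, minus strand: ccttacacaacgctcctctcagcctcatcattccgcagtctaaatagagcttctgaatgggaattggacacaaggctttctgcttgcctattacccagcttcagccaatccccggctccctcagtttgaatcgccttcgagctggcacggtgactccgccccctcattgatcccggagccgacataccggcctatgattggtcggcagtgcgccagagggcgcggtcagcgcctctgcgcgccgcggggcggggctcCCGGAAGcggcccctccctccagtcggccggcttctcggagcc
Slc25a25 (second window), chr2:32424017-32424316, minus strand: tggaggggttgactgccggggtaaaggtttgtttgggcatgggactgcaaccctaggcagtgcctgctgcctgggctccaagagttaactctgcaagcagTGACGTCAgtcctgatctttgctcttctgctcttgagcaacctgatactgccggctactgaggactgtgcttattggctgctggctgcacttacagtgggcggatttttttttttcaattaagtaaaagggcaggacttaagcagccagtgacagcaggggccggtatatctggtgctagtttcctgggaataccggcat

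The CRE palindrome, TGACGTCA, the site of cAMP-responsive factors, stood 161 bases before the start in the Slc25a36 window and 150 bases before it in the second Slc25a25 window, whose start matched no GENCODE transcript, but not in the other windows of Slc25a25. It was found in 2 of the 39 member windows and in 1.79% of all 32851 windows. It contains the shorter CRE core TGACG, found in 12 member windows and 20.8% of all windows. The Slc25a36 window also held the E box CACGTG, 187 bases before the start (7.15% of all windows). Slc25a17 held the ETS site CCGGAAG 77 bases before its start (8.86% of all windows). The same letters were found in windows of Slc25a4, Slc25a3, Slc25a20 and Slc25a38 and, 7 bases after the start, in the first window of Slc25a25. The window of Slc25a24 held the E box CAGCTG 126 bases before the start (16.3% of all windows). The ERR element TCAAGGTCA was in no member window and in 0.423% of all windows. The other motifs searched, each in no member window, were the NRF1 core CGCATGCG and the longer NRF1 palindrome that contains it, the TATA box TATAAA, the MEF2 site, the PPAR direct repeat, the YY1 element, the D box TTATGTAA and the hypoxia element TACGTG. A match is a run of letters and not a measured site.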

How the data were processed

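Total RNA from quadriceps was extracted with TRIzol and 0.5 µg went into stranded, ribosomal RNA-depleted libraries, 3 HSALR and 3 WT, per the labels. The authors deposited for 53947 genes the expected counts of RSEM (an estimate that divides reads matching several genes), TPM (those counts per effective length, scaled to a fixed sum) and, in other columns deposited by the authors, the length and effective length of each gene in each library. The submitters' notes name RSEM 1.3.1, Bowtie2 and GRCm39, while the release of the gene annotation was not given in the sources used here. The study describes a test for its small RNA libraries but none for these, so edgeR was used. FPKM was not used.

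Names, biotypes and positions were taken from GENCODE M39 (GRCm39) through gene identifiers, for 53400 genes (98.99%). Expected counts were rounded, filtered with filterByExpr (13576 genes kept), scaled by TMM and fitted with group as the only term (edgeR 4.0.16 robust quasi-likelihood, limma 3.58.1, R 4.3.3), and calls were made below 0.05 after Benjamini-Hochberg adjustment. The SE was obtained from the size of the log2 fold change over the root of F, and the common dispersion of 0.0535 corresponds to a biological coefficient of variation of 0.231. At these depths 3 counts correspond to 0.198 to 0.285 CPM, which covers counting error only. Shares were compared by exact permutation tests over the 6 libraries, and 2 planned shares were left out because a partner was under the minimum or not used here.

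Per-library values were given for called members, for the 8 members of highest mean TPM, and for both sides of shares that did not overlap, and other members were named with values where they were singled out after their values were seen. The members and gene lists were chosen with earlier results of these data known. Just inside the minimum was Slc25a13 (mean expected count 15) and just outside it Slc25a2 (6.5). On simulated counts for 13328 genes, with 200 changed in each of 5 simulations, the procedure recovered 2.43%, 36.8% and 81.4% of genes changed by 0.5, 1 and 2 on the log2 scale, and 11.6% of calls were false. In the data 1597 genes were called and HSALR replicate 1 stood apart. The simulation copied neither, so its rates may not hold for the data. All pairs of libraries differed by more than sampling noise, with a chi-square of at least 9.68 times its degrees of freedom. Results were recomputed with DESeq2 1.42.0, with limma-voom, with limma-trend on log2(TPM + 0.1), with other scalings, filters and gene sets, with length corrections, with a covariate for 7SL and 7SK content, with a replicate block and without each library. The values of 1 member, counted among the 39, are not reported here.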

Additional observations from a re-analysis of the deposited data

How the results depend on the processing

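Against 5 members called by edgeR, other settings called 2 (limma-trend on TPM), 3 (upper-quartile factors), 1 (effective length offset), 3 (length trend removed) and 2 (7SL and 7SK share as a covariate), and leaving out 1 library gave 0 to 8. Against 1597 genes called in all, DESeq2 called 2428, limma-trend on TPM 519, the effective length offset 705, the length trend removed 943, the covariate 935, and leaving out 1 library 166 to 3294. Of all calls 36.4% were higher in HSALR, but 48.2% with upper-quartile factors, 47.9% with DESeq2 and 9.63% on TPM, where the median of all genes shifted to -0.46. The replicate numbers did not pair the samples (correlations of same-numbered deviations 0.0157, -0.0744 and 0.207), and with a replicate block 6 members and 799 genes were called, Slc25a1 and Slc25a10 added and Slc25a51 lost. Slc25a17 stayed called in 16 of 20 alternatives (log2 fold change 0.89 to 1.65), Slc25a36 in 15 (-1.40 to -0.71), Slc25a24 in 12 (0.23 to 1.40), Slc25a25 in 11 (-1.63 to -0.48) and Slc25a51 in 9 (-1.22 to -0.38). No called member changed direction. Among members not called, Slc25a5 turned to -0.06 on TPM, Slc25a33 was -0.36 on TPM and -0.02 to 0.38 with 1 library left out, and Slc25a20 was 0.04 with upper-quartile factors, 0.19 with the covariate and -0.23 to 0.12 with 1 library left out. Of the shares, that of Slc25a37 (0.417 points) was -4.17 points on counts and -2.40 with averaged lengths, that of Slc25a39 (-0.332) was 2.68 and 2.16, and that of Slc25a42 (0.842) was -2.76 and -2.54. Leaving out 1 library they ran from -1.42 to 2.26 (Slc25a37), -3.12 to 1.71 (Slc25a39), -3.52 to 5.94 (Slc25a42) and, for Slc25a34, -6.51 to 1.79. A minimum of 100 counts left 25 members. The cause of these changes was not tested. Depth limits the low members, since 27 of the 39 averaged under 5 TPM.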

Other observations

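Of the 8 SLC25 genes under the count minimum, Slc25a54 had 0 counts in every library. Slc25a43, whose substrate is not assigned, had 2, 3 and 7 counts in HSALR and 0 in each WT library. Slc25a48, a choline carrier, had 0, 3 and 17 counts in HSALR replicates 1, 2 and 3 and at most 2 in WT. Slc25a2, the second ornithine carrier, had 4, 5 and 2 counts in HSALR and 12, 7 and 9 in WT. Slc25a41, a short relative of the ATP-Mg/phosphate carriers, had 0, 3 and 1 counts in HSALR and 4, 1 and 4 in WT. Slc25a18, Slc25a21 and Slc25a31, the carriers of glutamate (the second isoform), oxoadipate and ADP/ATP in the testis, had at most 2 counts in any library. These genes were not tested.

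Across the 39 members, genes with longer transcripts tended to have lower log2 fold changes (Spearman's rho -0.506, against -0.247 over all protein-coding genes tested), and so did genes with higher mean CPM (-0.515). Both are descriptions across genes of the same 6 libraries, and genes are not independent replicates.

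Slc25a24 had the same order over the 6 libraries as the sum of 3 satellite cell markers (8.45, 6.85 and 7.11 CPM in HSALR, 3.81, 4.89 and 3.49 CPM in WT). This order was noticed after the values were seen, in the search of every member against every marker list. So wide a search can give matches by chance. Slc25a24 and the sum were each higher in every HSALR library than in any WT library, which makes a match likelier. The part of satellite cells in this gene was not tested.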
